A study of Mus musculus with 12 samples.

Results

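The metallothioneins Mt1 and Mt2 and 6 antioxidant genes that are commonly read as targets of the transcription factor NRF2 (Hmox1, Nqo1, Gclc, Gclm, Txnrd1 and Srxn1) were followed through minoxidil treatment and withdrawal in the mouse aorta. The members were chosen by gene symbol, with earlier results of these data known, and 8 of the 50600 annotated genes carried one of these symbols. RNA sequencing was done on whole descending thoracic aorta, taken from the left subclavian artery down to the diaphragm, of C57BL/6J mice with the genotype Elastin +/-, also written Eln+/-. Off-drug mice (n = 4) drank minoxidil, which relaxes arteries by opening potassium channels, from 2.5 to 3 months of age and then drug-free water for 1 week. On-drug mice (n = 4) drank minoxidil over the same 2 weeks and were taken at its end, and control mice (n = 4) drank regular water. All 3 groups carried the elastin mutation, so none is a wild type. Every sample has a labelled age of 3 months, although the schedule puts the off-drug harvest about 1 week after the on-drug one. The dose, the sex, the cage and the hour of collection are not given in the labels.

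Metallothioneins are small cysteine-rich proteins that bind zinc and copper and scavenge oxidants. Their genes are switched on by the metal-sensing factor MTF1 through metal response elements, and in mouse they also respond to glucocorticoid hormones. NRF2, encoded by Nfe2l2, is held back by KEAP1 and degraded in unstressed cells; when it is released it pairs with a small Maf protein and binds antioxidant response elements, where the repressor BACH1 competes with it. In the vessel wall these genes are known for their part in the handling of oxidants, haem and quinones.

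Mt2 and Mt1 lie side by side on the plus strand of chromosome 8, Mt2 at chr8:94172664-94173568 and Mt1 at chr8:94179082-94180327 (GRCm38). Further members lie on the same chromosome, Hmox1 (haem oxygenase 1) at chr8:75093621-75100589 on the plus strand and Nqo1 (a quinone reductase) at chr8:107388225-107403206 on the minus strand. Srxn1 (sulfiredoxin, which repairs over-oxidised peroxiredoxins) lies at chr2:152105516-152111376, Gclm at chr3:122245557-122270732, Gclc at chr9:77754535-77794485 and Txnrd1 (cytosolic thioredoxin reductase) at chr10:82833951-82897712, all on the plus strand. Gclc and Gclm encode the catalytic and the modifier subunit of glutamate-cysteine ligase, the first step of glutathione synthesis.

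The 150 bases before the RefSeq start of Mt1, Mt2 and Srxn1 are shown because Mt2 fell off drug against on drug while its neighbour Mt1 was not called, and Srxn1 was one of the NRF2 genes that rose. Each is read 5′ to 3′ on the plus strand of GRCm38.p6, at chr8:94178939-94179088 for Mt1, chr8:94172468-94172617 for Mt2 and chr2:152105374-152105523 for Srxn1. Capitals mark every match, on either strand, to the metal response element core (TGCACNC or TGCGCNC), the antioxidant response element core (TGACNNNGC) or the more narrowly defined NRF2 and small Maf core (TGANTCAGC).
Mt1: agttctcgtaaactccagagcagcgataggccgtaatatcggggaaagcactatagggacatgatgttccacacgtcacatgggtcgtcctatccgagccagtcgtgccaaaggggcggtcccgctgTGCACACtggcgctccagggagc
Mt2: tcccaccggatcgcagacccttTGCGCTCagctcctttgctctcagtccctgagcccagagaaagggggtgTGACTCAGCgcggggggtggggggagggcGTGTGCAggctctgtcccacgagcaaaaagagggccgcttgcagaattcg
Srxn1: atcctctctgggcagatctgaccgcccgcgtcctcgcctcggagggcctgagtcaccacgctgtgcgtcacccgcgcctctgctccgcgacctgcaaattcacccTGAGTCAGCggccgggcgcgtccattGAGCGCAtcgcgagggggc
The RefSeq start of Mt2 lies upstream of the start that the count files use for this gene.

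Mt1 held 1 metal core in its 150 bases (TGCACAC) and 3 in the whole window, which runs from 250 bases before to 50 bases after the start. The Mt1 matches TGCACTC and TGCGCTC began 2 and 20 bases after the RefSeq start. Mt2 held 2 in its 150 bases and 4 in the whole window. Bases beyond these windows were not searched, so the counts for Mt1 and Mt2 do not describe their promoters as a whole. Of 32851 mouse promoters in the same RefSeq table, 25.7% held at least 1 such match in the whole window, 1.97% held at least 3 and 0.517% held at least 4. Mt2 also carried TGACTCAGC, which matches both the antioxidant core and the NRF2 and small Maf core, and Srxn1 carried TGAGTCAGC. The NRF2 and small Maf core was found in 1.19% of all whole windows and the antioxidant core in 12.4%. Gclm held 3 metal cores and 1 antioxidant core, Txnrd1 held 1 antioxidant core before 1 of its 3 starts, and Nqo1 held none of these letters. Such matches describe letters in a window and not binding, and they do not single out NRF2 or any other factor. The NRF2 and small Maf core was chosen after the values were seen. Hmox1 and Gclc had no entry in the table.

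The libraries held between 41524501 and 109423243 counts, and all 8 members passed the filter on low counts with at least 407 counts in every library (Hmox1). Smooth muscle markers were abundant in each group, with a summed level of 17200 to 19700 CPM (counts scaled to library size, edgeR's cpm) off drug, 17900 to 20600 CPM on drug and 15700 to 18200 CPM in controls. None of the 6 smooth muscle markers was at 0 in any library. Macrophage markers, 9 genes, summed to 671 to 777 CPM off drug, 835 to 1020 CPM on drug and 793 to 1010 CPM in controls, and red cell markers, 7 genes, to 2040 to 4800 CPM off drug, 3880 to 6000 CPM on drug and 4920 to 20600 CPM in controls. Of the macrophage markers 4 were lower off drug than in controls, 6 lower off drug than on drug and 2 higher on drug than in controls. These calls are by the test used below, where the shares over all genes are given. All 7 red cell markers were lower off drug than in controls. The 6 endothelial markers summed to 583 to 759 CPM off drug, 789 to 923 CPM on drug and 617 to 713 CPM in controls, with 3 lower off drug than on drug, 1 lower off drug than in controls and 2 higher on drug than in controls. Of the 6 fibroblast markers 3 were lower off drug than on drug. The 7 adipocyte markers summed to 64.9 to 392 CPM off drug, 185 to 321 CPM on drug and 119 to 495 CPM in controls, with 0 called. Skeletal muscle markers, 7 genes, summed to only 5.18 to 19.3 CPM. Of these, 2 were higher off drug and 2 higher on drug than in controls, and 1 was higher off drug than on drug. Of the 6 smooth muscle markers 2 were higher off drug than in controls and 1 higher on drug than in controls, with 1 higher and 1 lower off drug than on drug. The part of these shifts in the results below was not tested. In whole tissue, fewer cells of a type and less RNA per cell cannot be told apart.

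Per kilobase of annotated exon, the members spanned a wide range of levels. Averaged over the 12 libraries, Mt1 stood at 114 RPKM (CPM divided by exon length in kilobases) with single libraries between 83.8 and 179 RPKM, and Mt2 stood at 56.8 RPKM with libraries between 28.8 and 115 RPKM. The ranges of the pair overlapped, although Mt1 was above Mt2 on this scale within every library. The exon length of Mt1, 1246 bases, equals its whole annotated span, so any intron bases are counted in it. For Mt2 it is 588 bases, less than its span. The RPKM of Mt1 may therefore be understated beside that of Mt2. Nqo1 followed at 17.1 RPKM and was separated from both neighbours in the order, with libraries between 13.8 and 22.3 RPKM. Gclm (11.1 RPKM), Srxn1 (10.4 RPKM) and Gclc (9.59 RPKM) had overlapping ranges and could not be ranked. The levels of Gclm and Mt2 include reads shared with other genes, as given below, so their place in this order is uncertain. Txnrd1 (6.27 RPKM, 5.65 to 6.90) and Hmox1 (4.83 RPKM, 4.26 to 5.57) were lowest, each below its upper neighbour in all libraries.

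Differences between groups were tested with edgeR's quasi-likelihood test in 1 fit over all 24660 genes and 12 libraries, and a gene was called where its p-value, adjusted by Benjamini-Hochberg over all genes, was below 0.05. Of the 8 members, 4 were called higher off drug than in controls and 0 lower, against 6.27% of all genes called higher, 5.77% called lower and 12% in either direction. Gclm, 1 of these 4, shares reads with other genes, as given below. In off drug against on drug, 2 were called higher and 1 lower, against 5.44%, 6.92% and, in either direction, 12.4% of all genes. In on drug against control 0 of the 8 were called, against 4.13% of all genes called higher, 2.94% called lower and 7.07% in either direction; 1 member had an unadjusted p below 0.05 there, as had 22.6% of all genes, and DESeq2 and limma-voom also called 0. Over the 8 members the median difference, on the log2 scale, was 0.09 between off drug and control, beside -0.0077 over all genes. It was 0.08 between off drug and on drug (-0.00105 over all genes) and 0.07 between on drug and control (0.0049 over all genes). The first 2 comparisons share the off-drug libraries, so their calls are not independent. As the members were chosen with earlier results of these data known, that choice may itself have shaped these counts.

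**Figure D1:**
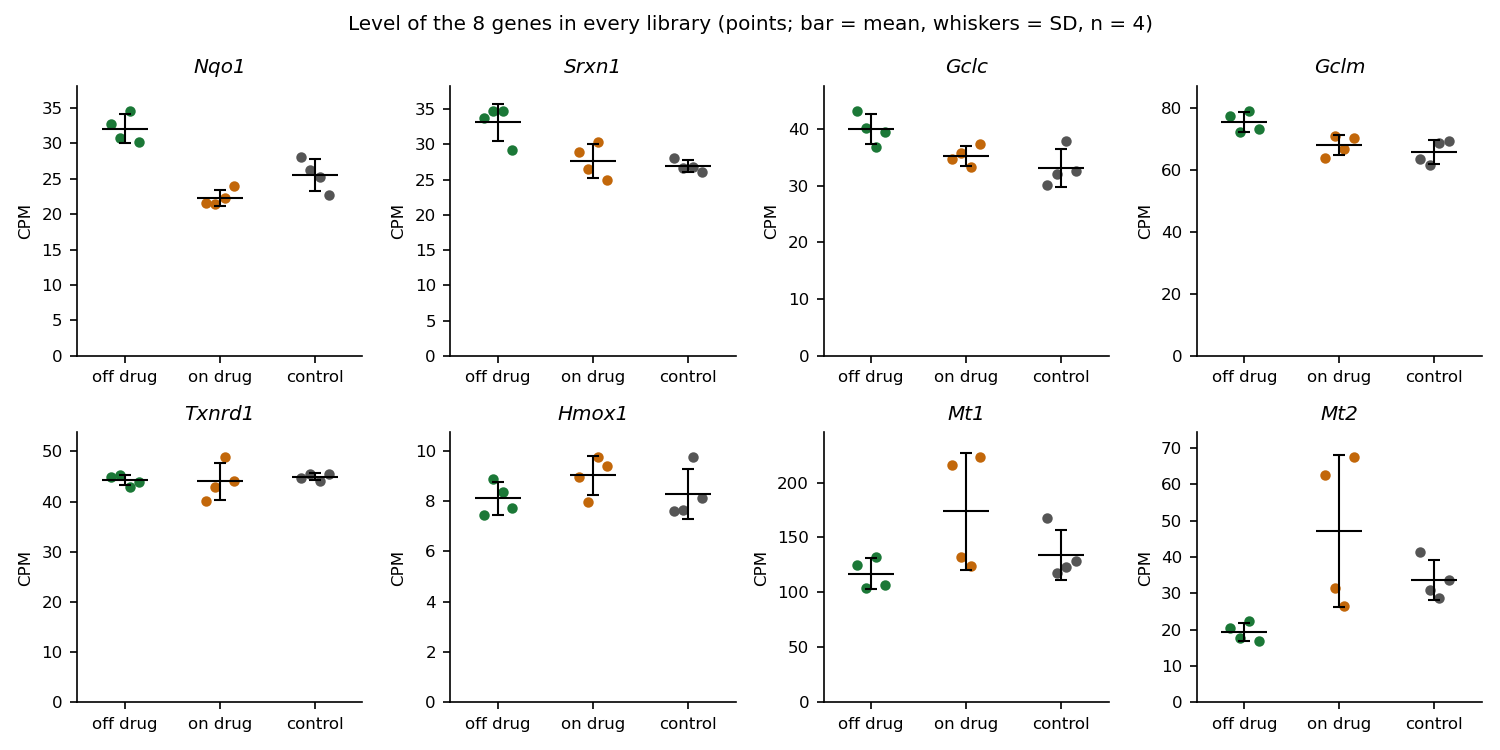
Level of each of the 8 genes in every library (CPM), with off-drug, on-drug and control libraries from left to right, the group mean and its SD (n = 4). The 4 off-drug libraries of Nqo1 lie above all others, those of Mt2 lie below all others, and the groups overlap for Txnrd1 and Hmox1.

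Nqo1 gave the largest rise among the members. It had 32.6, 30.7, 34.6 and 30.2 CPM in the off-drug libraries, against 21.5, 21.4, 22.2 and 23.9 CPM in the on-drug libraries and 28.1, 26.2, 25.2 and 22.7 CPM in the controls. Every off-drug library was above every library of the other groups, whereas on-drug and control libraries overlapped through control replicate 4. The log2 fold change was 0.33 ± 0.07 (SE) for off drug against control (adjusted p = 0.0066) and 0.53 ± 0.07 for off drug against on drug (adjusted p = 9.53e-05), 1.26-fold and 1.44-fold. On drug against control it was -0.20 ± 0.07, with an unadjusted p of 0.016 and an adjusted p of 0.117, which is not called.

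Srxn1 had 33.7, 34.8, 34.7 and 29.2 CPM off drug, against 28.9, 26.4, 30.4 and 25 CPM on drug and 28.1, 26.6, 26.7 and 26.1 CPM in controls. The off-drug libraries stood above all 4 controls, but off-drug replicate 4 lay below on-drug replicate 3. Srxn1 rose off drug against control by 0.30 ± 0.07 on the log2 scale (edgeR, adjusted p = 0.012) and off drug against on drug by 0.26 ± 0.07 (adjusted p = 0.0266). The second call was lost when off-drug replicate 1, 2 or 3 or on-drug replicate 2 or 4 was left out, with adjusted p of 0.0655 to 0.0968. Between on drug and control the difference was 0.04 ± 0.07 (adjusted p = 0.812).

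The subunits of glutamate-cysteine ligase moved by smaller amounts. Gclc, the catalytic subunit, had 43.2, 40.2, 36.8 and 39.4 CPM off drug, against 34.8, 35.7, 33.2 and 37.3 CPM on drug and 30.1, 32.1, 37.8 and 32.5 CPM in controls. Control replicate 3 lay above off-drug replicate 3, so the groups overlapped. Gclc rose off drug against control by 0.27 ± 0.07 on the log2 scale (edgeR, adjusted p = 0.0218), a call that was lost without control replicate 1, 2 or 4 or off-drug replicate 1 (adjusted p 0.0583 to 0.0934). Off drug against on drug it differed by 0.18 ± 0.07 (adjusted p = 0.126).

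Gclm, the modifier subunit, had 77.5, 72.5, 79.3 and 73.5 CPM off drug, against 64.1, 71.0, 66.9 and 70.5 CPM on drug and 63.7, 61.6, 68.8 and 69.3 CPM in controls. The off-drug libraries were the 4 highest of the 12. Gclm rose off drug against control by 0.20 ± 0.06 on the log2 scale (edgeR, adjusted p = 0.0333) and differed off drug against on drug by 0.15 ± 0.06 (adjusted p = 0.105). The call was lost without a filter on low counts (adjusted p = 0.0714) and in 7 of the 12 fits that left out 1 library, those without control replicate 1 or 2, off-drug replicate 1, 3 or 4, or on-drug replicate 2 or 3 (0.0519 to 0.126). Gclm shares 244 exon bases with the pseudogene Gm6061 and 296 with the opposite-strand gene Gm17494, which held 121542 and 135876 counts over the 12 libraries beside 59811 for Gclm. Reads over several genes were counted for each and without strand, so the share of each in the value for Gclm cannot be told apart. That of the other genes may be large. Gm6061 averaged 151 CPM off drug, 140 CPM on drug and 136 CPM in controls, beside 75.7, 68.1 and 65.9 CPM for Gclm. Gm6061 differed off drug against control by 0.15 ± 0.06 (edgeR, adjusted p = 0.118), which is not called.

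In off drug against control, 3 members (Nqo1, Srxn1 and Gclm) were higher in every off-drug library than in any control, against 9.2% of all genes, and 1 (Mt2) was lower in every off-drug library, against 7.73%; 16.9% of all genes were separated in either direction. In off drug against on drug the groups were separated in the higher direction for 2 members (Nqo1 and Gclm), against 9.44% of all genes, and in the lower direction for 1 (Mt2), against 9.36%, with 18.8% of all genes in either direction. For on drug against control 0 members were separated, against 12.3% of all genes, 6.3% in the higher and 6.01% in the lower direction.

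**Figure D2:**
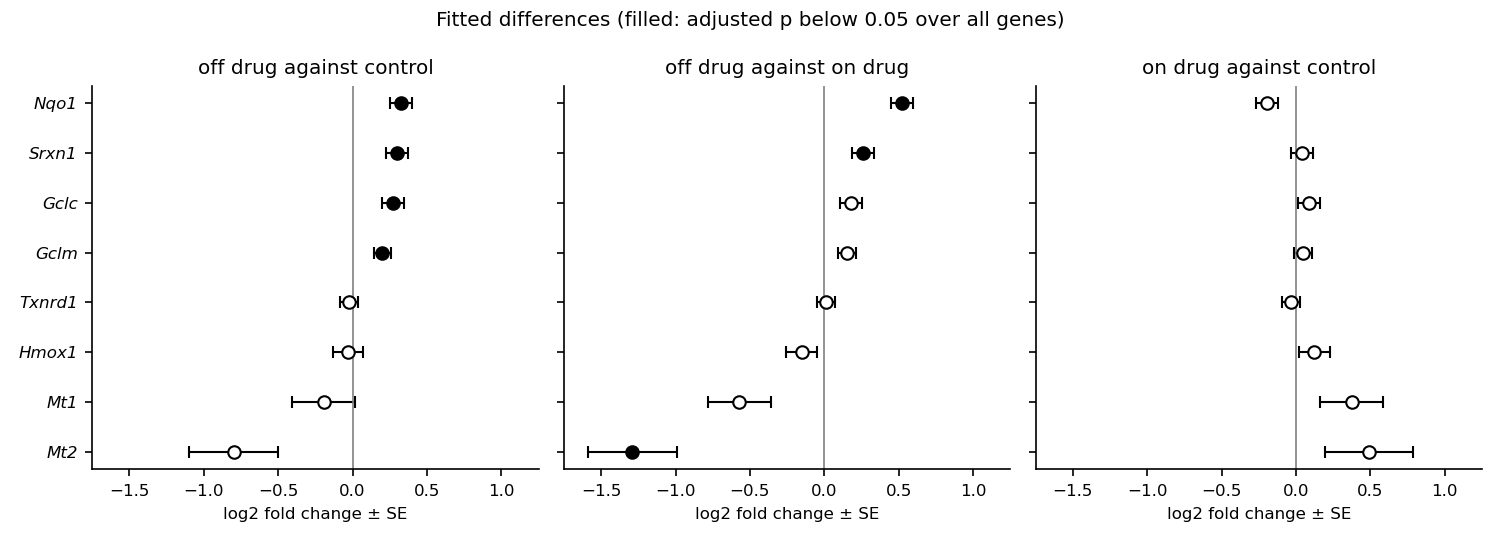
Log2 fold change of the 8 genes with its SE in off drug against control, off drug against on drug and on drug against control, left to right; filled points have an adjusted p below 0.05. Nqo1 and Srxn1 are filled in both off-drug comparisons, Gclc and Gclm against control and Mt2 against on drug, and no point is filled in on drug against control.

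Txnrd1 and Hmox1 were not called in any comparison. Txnrd1 had 44.8, 45.2, 43.0 and 44.0 CPM off drug, against 40.1, 43.0, 48.9 and 44.2 CPM on drug and 44.8, 45.5, 44.1 and 45.5 CPM in controls. On-drug replicates 1 and 3 marked the lowest and the highest library. Its log2 fold change was -0.02 ± 0.06 for off drug against control (edgeR, adjusted p = 0.863), 0.01 ± 0.06 for off drug against on drug (adjusted p = 0.956) and -0.03 ± 0.06 for on drug against control (adjusted p = 0.826). All 3 of these values changed sign under other scalings, tools or omitted libraries.

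Hmox1, which degrades haem and is induced strongly in macrophages that take up red cells, had 7.46, 8.88, 8.35 and 7.71 CPM off drug, against 8.94, 7.97, 9.75 and 9.40 CPM on drug and 7.60, 7.66, 9.74 and 8.12 CPM in controls. The 3 groups overlapped throughout. The log2 fold change was -0.03 ± 0.10 for off drug against control (edgeR, adjusted p = 0.896; 0.03 with library size alone as the scale), -0.15 ± 0.10 for off drug against on drug (adjusted p = 0.389) and 0.12 ± 0.10 for on drug against control (adjusted p = 0.538). All 7 red cell markers and 4 of the 9 macrophage markers, given above, were called lower off drug than in controls. The part of either in the level of Hmox1 was not tested.

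Mt2 moved in the direction opposite to Nqo1 and Srxn1 off drug against on drug. It had 20.4, 17.8, 22.3 and 16.9 CPM off drug, against 62.6, 31.6, 26.6 and 67.5 CPM on drug and 41.4, 30.9, 28.6 and 33.7 CPM in controls. All 4 off-drug libraries were below every other library, and the on-drug replicates 1 and 4 were both above all other libraries. Mt2 fell off drug against on drug, with a log2 fold change of -1.29 ± 0.30 (edgeR, adjusted p = 0.0211), 0.409-fold. That call was lost without off-drug replicate 1, 2 or 4, without on-drug replicate 1, and in a fit of these groups alone (adjusted p 0.0503 to 0.0628). Off drug against control the difference was -0.80 ± 0.30 (adjusted p = 0.123); DESeq2 (adjusted p = 0.0317), a non-robust fit (0.0384) and a fit of these groups alone (0.000961) called it. On drug against control it was 0.49 ± 0.29 (adjusted p = 0.377), and 0.32 without on-drug replicate 1 or 0.27 without on-drug replicate 4. Mt2 shares 432 of its 588 exon bases with the opposite-strand gene Gm45774, whose counts (25665 over all libraries, against 29498 for Mt2) cannot be told apart from it, and whose difference off drug against on drug was -1.23 ± 0.30 (adjusted p = 0.0266).

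Mt1 had 125, 104, 133 and 107 CPM off drug, against 216, 132, 124 and 223 CPM on drug and 168, 117, 123 and 128 CPM in controls. On-drug replicates 1 and 4 and control replicate 1 were the highest libraries, and the groups overlapped in all 3 comparisons. The log2 fold change was -0.57 ± 0.21 for off drug against on drug (edgeR, adjusted p = 0.122), -0.19 ± 0.21 for off drug against control (adjusted p = 0.633) and 0.38 ± 0.21 for on drug against control (adjusted p = 0.344). DESeq2 (adjusted p = 0.0489) and a non-robust fit (0.0427) called the first of these. The second was -0.07 without control replicate 1, and the third was 0.25 or 0.23 when on-drug replicate 1 or 4 was left out.

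Because the pair is transcribed from neighbouring genes, the count of Mt2 was also divided by that of Mt1 in the same library, a ratio that needs no library scaling and was chosen after the values were seen. The ratio was 0.163, 0.171, 0.168 and 0.159 off drug, against 0.290, 0.239, 0.216 and 0.303 on drug and 0.247, 0.264, 0.233 and 0.263 in controls. The off-drug libraries were close to each other and below all 8 others. The mean log2 ratio was lower off drug by 0.61 than in controls and by 0.65 than on drug. On drug it differed from controls by 0.05, a difference that turned negative without on-drug replicate 1 or 4. As the ratio was formed because Mt2 and Mt1 looked unlike in these libraries, no p-value is given for it. The read overlap of Mt2 with Gm45774 enters this ratio as well. The other metallothionein genes were close to the limit of detection, with Mt3 (a form known from brain) between 0.0384 and 0.272 CPM and Mt4 at 0 to 11 counts per library.

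**Figure D3:**
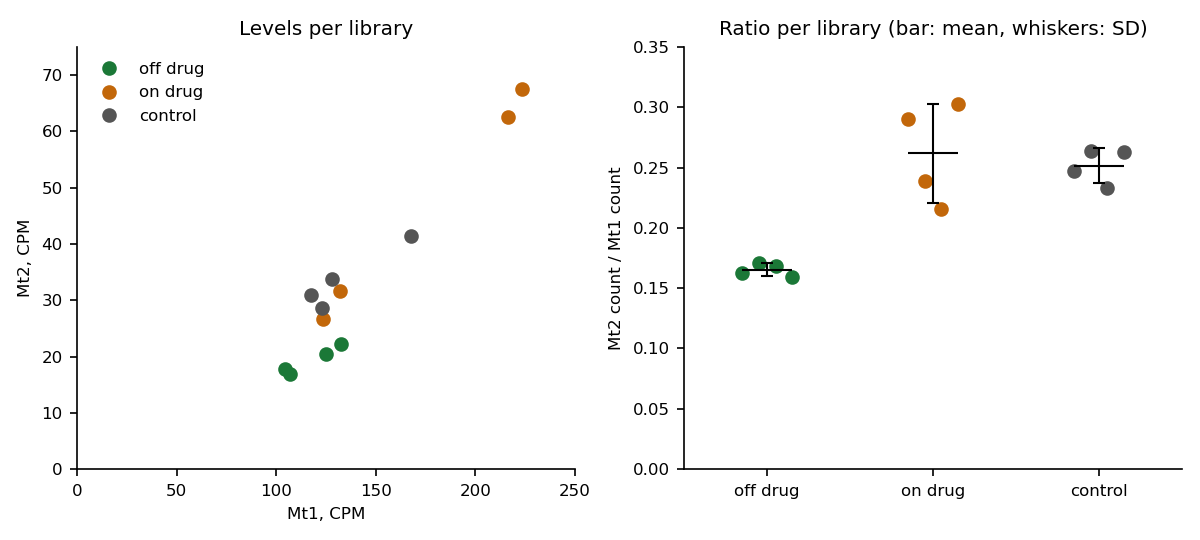
Left, the level of Mt2 against that of Mt1 (CPM) in each of the 12 libraries; right, the ratio of their counts per library, with the group mean and SD (n = 4), for off drug, on drug and control. The off-drug libraries lie between 0.159 and 0.171 and below every other library, and on-drug replicates 1 and 4 lie highest for both genes.

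On-drug replicates 1 and 4, which stood apart for Mt1 and Mt2, were also the 2 deepest on-drug libraries. They held the 2 highest on-drug values for 16.1% of all genes tested, for 6 of 12 glucocorticoid-responsive genes, for 4 of 7 NADPH-generating enzymes and for 6 of 7 red cell markers, the 3 highest shares among 18 lists. The other 15 lists ranged from 0% to 28.6%, with 4 of 21 genes of glutathione synthesis and use, 1 of 11 of metal homeostasis, 0 of 11 NRF2 sensors and partners, 0 of 9 macrophage markers and 0 of 6 each for smooth muscle, fibroblast and endothelial markers. Fkbp5, a glucocorticoid-induced chaperone partner named here after its values were seen, had 54.5, 49.7, 48.1 and 52.3 CPM off drug, against 149.6, 89.1, 69.1 and 108.0 CPM on drug and 62.6, 72.8, 106.6 and 93.6 CPM in controls. The highest 2 on-drug values of Fkbp5 were thus in the same libraries as those of the metallothioneins. In the controls Fkbp5 was lowest in replicate 1 (62.6 CPM), where Mt1 (168 CPM) and Mt2 (41.4 CPM) were highest. Zbtb16, of the same glucocorticoid-responsive list, was also lowest there. Sgk1, Klf9, Errfi1, Ddit4, Pdk4 and Angptl4 of that list were instead highest in control replicate 1, as the metallothioneins were. Tsc22d3, Per1, Dusp1 and Cdkn1a were neither highest nor lowest there. Dusp1 and Cdkn1a, of the same glucocorticoid-responsive list, had their lowest on-drug values in replicate 4 (304 and 12.4 CPM). The part of hormone response, red cells or depth in the metallothionein values was not tested.

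Across the 12 libraries, Pearson's r of log2 CPM was 0.926 between Mt1 and Mt2, 0.766 between Gclc and Gclm, 0.722 between Nqo1 and Srxn1 and -0.648 between Mt2 and Nqo1. These values describe 12 libraries that include the differences between groups. Values with Gclm or Mt2 also include reads shared with the overlapping genes named above. Among 12187 well-expressed genes, the pattern of Nqo1 was most like those of Slc8a3 (r = 0.977), Kcnj8 (0.966) and H2afv (0.965). For Srxn1 the nearest were Mocos (0.951), Gstt3 (0.919) and Reep1 (0.918). For Mt2 they were Hebp2 (0.890), Tspan6 (0.889) and Hrct1 (0.883), and for Hmox1 they were Jam2 (0.863), Rgs18 (0.844) and Iqgap2 (0.843).

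The genes that act upstream of the members were followed next. Nfe2l2, which encodes NRF2, had 66.2, 66.1, 65.6 and 74.2 CPM off drug, against 52.3, 53.4, 53.1 and 56.1 CPM on drug and 55.3, 54.2, 53.5 and 42.8 CPM in controls. All off-drug libraries stood above all others. Nfe2l2 rose off drug against control by 0.40 ± 0.07 on the log2 scale (edgeR, adjusted p = 0.00136) and against on drug by 0.34 ± 0.07 (adjusted p = 0.0041). Of the 3 small Maf partners, Mafk and Maff were called in the other direction, and Mafg was not called (-0.11, adjusted p = 0.366, off drug against control; -0.18, adjusted p = 0.128, off drug against on drug). Mafk averaged 77.8 ± 2.86 CPM off drug, 150 ± 8.01 CPM on drug and 131 ± 10.9 CPM in controls (SD, n = 4 each), with a log2 fold change of -0.75 ± 0.06 for off drug against control (adjusted p = 5.81e-07) and -0.95 ± 0.06 for off drug against on drug (adjusted p = 3.46e-08). Maff averaged 17.5 ± 1.01 CPM off drug, 34.0 ± 3.02 CPM on drug and 27.6 ± 4.77 CPM in controls, with -0.66 ± 0.10 (adjusted p = 0.000356) and -0.95 ± 0.10 (adjusted p = 6.8e-06) in the same comparisons. Keap1, Bach1 and Mtf1, which encode the sensor, the competing repressor and the metal-sensing factor, were not called in any comparison, with log2 fold changes between -0.16 and 0.12. Their adjusted p was 0.567, 0.982 and 0.70 for off drug against control, 0.962, 0.928 and 0.274 for off drug against on drug, and 0.551, 0.913 and 0.130 for on drug against control.

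The list counts that follow stand beside the shares of all genes called. Off drug against control, 6.27% were higher and 5.77% lower. These shares were 5.44% and 6.92% off drug against on drug, and 4.13% and 2.94% on drug against control. Of the 11 NRF2 sensors and partners, 3 rose and 2 fell off drug against control, around a list median of -0.0047 on the log2 scale. The others that rose, named after their values were seen, were Sqstm1 and Dpp3, both of which bind KEAP1. Off drug against on drug 1 rose and 2 fell, and on drug against control 0 of the 11 were called, around list medians of -0.0095 and 0.09. Of 11 genes of metal homeostasis tested beside the members, 1 rose and 2 fell off drug against control (list median -0.01 on the log2 scale), 0 rose and 1 fell off drug against on drug (0.12) and 0 rose and 1 fell on drug against control (-0.04). Slc39a14, a zinc and manganese importer, averaged 48.4 ± 1.17 CPM off drug, 74.2 ± 2.00 CPM on drug and 67.7 ± 6.40 CPM in controls, with log2 fold changes of -0.48 (adjusted p = 5.28e-05) against control and -0.62 (adjusted p = 3.34e-06) against on drug. Cp (ceruloplasmin, a copper-carrying ferroxidase) fell off drug by 0.35 (adjusted p = 0.00688) and on drug by 0.31 (adjusted p = 0.0262) against control; Ccs (the copper chaperone of superoxide dismutase) rose off drug against control by 0.31 (adjusted p = 0.0339). The call on Ccs was lost without control replicate 2, 3 or 4, without off-drug replicate 1, 3 or 4, and without the filter on low counts (adjusted p 0.0527 to 0.110). That on Cp on drug was lost without control replicate 2 or on-drug replicate 4, and with library size alone as the scale (adjusted p 0.0692 to 0.099).

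Among 21 genes of glutathione synthesis and use, 6 rose and 1 fell off drug against control, and 7 rose and 3 fell off drug against on drug, while on drug against control 0 were called. Over all genes, 6.27% rose and 5.77% fell in the first comparison, 5.44% and 6.92% in the second, and 4.13% and 2.94% in the third. The list's median log2 fold change was -0.02, 0.01 and -0.0018 in these comparisons. Those that rose were mostly glutathione transferases. Gstt1 averaged 73.1 ± 2.98 CPM off drug, 52.1 ± 2.57 CPM on drug and 52.0 ± 3.27 CPM in controls, 0.49 higher on the log2 scale in both comparisons (edgeR, adjusted p = 3.13e-05 against control and 2.45e-05 against on drug). Gsta4, which conjugates lipid aldehydes, averaged 5.10 ± 0.448 CPM off drug, 2.28 ± 0.488 CPM on drug and 2.87 ± 0.262 CPM in controls, with differences of 0.83 against control (adjusted p = 0.00125) and 1.15 against on drug (adjusted p = 4.82e-05). Abcc1, an exporter of glutathione conjugates, rose off drug against control by 0.46 (adjusted p = 0.000324). Gpx7, an endoplasmic reticulum peroxidase, had a log2 fold change of -0.38 off drug against on drug (adjusted p = 0.00193). Glutathione transferase genes have close copies, which may share reads in these counts.

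Among 10 genes of quinone and aldehyde detoxification, 5 rose and 0 fell off drug against control, and 5 rose and 1 fell off drug against on drug, around list medians of 0.23 and 0.25. Beside these, 6.27% of all genes rose and 5.77% fell in the first comparison, and 5.44% and 6.92% in the second. On drug against control 4.13% of all genes rose. Ephx1, the microsomal epoxide hydrolase, averaged 276 ± 8.88 CPM off drug, 191 ± 13.6 CPM on drug and 164 ± 11.5 CPM in controls. Its differences were 0.75 against control (edgeR, adjusted p = 5.81e-07) and 0.53 against on drug (adjusted p = 1.94e-05). Aox1, an aldehyde oxidase, rose off drug by 0.49 against control (adjusted p = 0.000251) and 0.37 against on drug (adjusted p = 0.00223). Osgin1 rose off drug against control by 1.28 (adjusted p = 0.0026), at a low level of 1.4 ± 0.215 CPM off drug and 0.572 ± 0.13 CPM in controls. Por, the electron donor of cytochrome P450 enzymes, had another pattern, with 57.8 ± 1.16 CPM off drug, 85.7 ± 6.12 CPM on drug and 54.3 ± 4.69 CPM in controls. It rose on drug against control by 0.66 (adjusted p = 2.12e-05) and was lower off drug than on drug by a log2 fold change of -0.57 (adjusted p = 1.51e-05). In on drug against control 2 of the 10 rose, Por and Ephx1, but the call on Ephx1 (0.22, adjusted p = 0.0437) was lost under 14 of 21 other settings, among them replicate number as a block (0.0568) and the omission of control replicate 1, 2 or 4, any off-drug library, or on-drug replicate 2, 3 or 4 (0.0577 to 0.158).

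**Figure D4:**
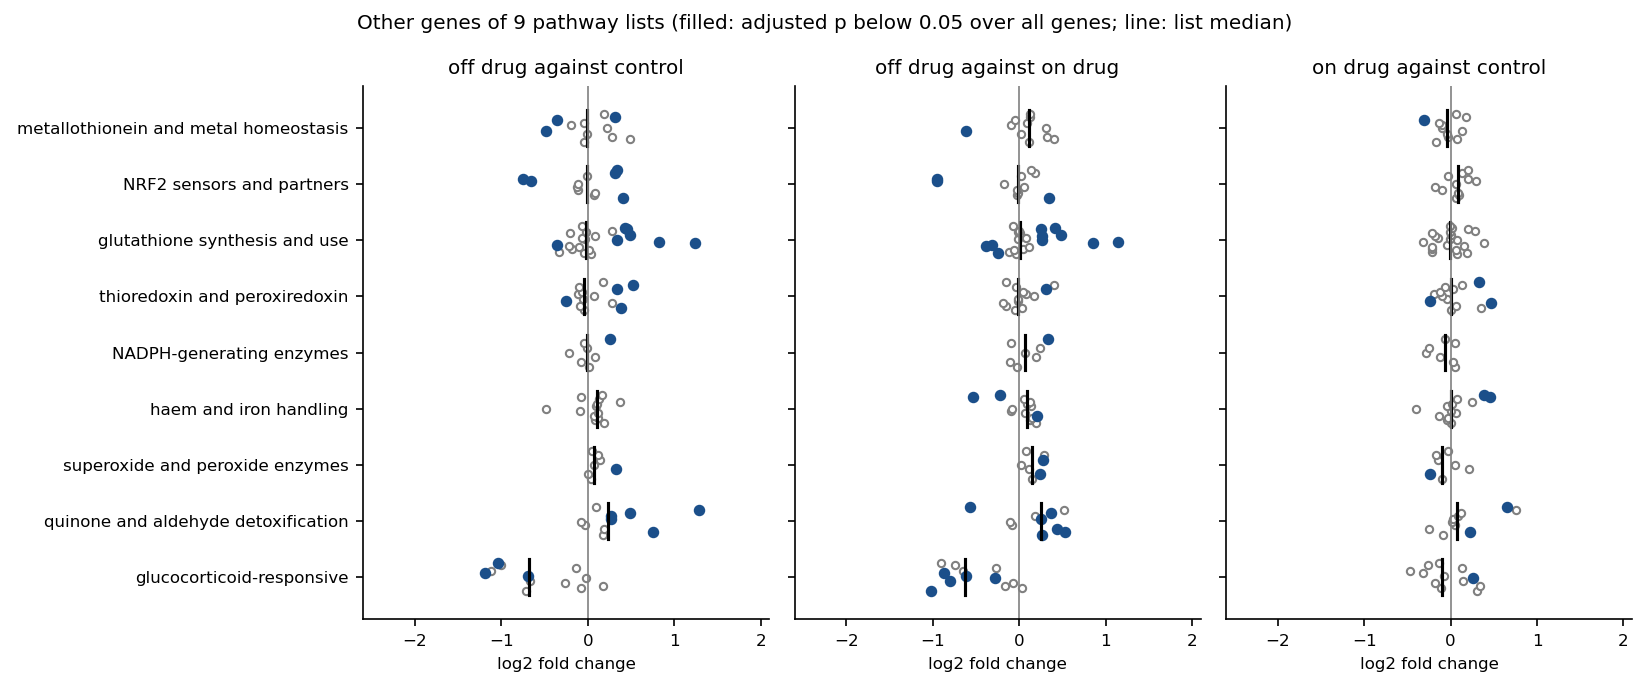
Log2 fold change of the other genes of 9 pathway lists (1 point per gene) in off drug against control, off drug against on drug and on drug against control; filled points have an adjusted p below 0.05 and the vertical bar is the list's median. Most filled points of the glutathione and quinone lists lie to the right in the off-drug comparisons, and all filled points of the glucocorticoid-responsive list lie to the left there.

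Among 13 thioredoxin and peroxiredoxin genes, 3 rose and 1 fell off drug against control, 1 rose off drug against on drug, and 2 rose and 1 fell on drug against control, around list medians of -0.04, -0.01 and 0.01. In the same order, 6.27%, 5.44% and 4.13% of all genes rose and 5.77%, 6.92% and 2.94% fell. Prdx6, the peroxiredoxin that uses glutathione, averaged 85.6 ± 4.56 CPM off drug, 68.9 ± 4.79 CPM on drug and 67.7 ± 2.96 CPM in controls, with differences of 0.34 against control (edgeR, adjusted p = 0.00135) and 0.31 against on drug (adjusted p = 0.00198). Prdx1 fell by 0.26 off drug (adjusted p = 0.00734) and by 0.24 on drug (adjusted p = 0.0174), both against control. Sesn2, a stress-induced regulator of peroxiredoxins, rose off drug against control by 0.52 (adjusted p = 0.0156), and Txnip, the thioredoxin inhibitor, and Msrb1, a methionine sulfoxide reductase, rose on drug against control by 0.47 (adjusted p = 0.0289) and 0.33 (adjusted p = 0.023). Leaving out single libraries ended the calls on Sesn2 (control replicate 2 or 3, off-drug replicate 1 or 3), on Msrb1 (control replicate 1, 2 or 3, on-drug replicate 2, 3 or 4), on Txnip (any control, on-drug replicate 1, 2 or 4) and on Prdx1 on drug (control replicate 3, on-drug replicate 3 or 4), with adjusted p between 0.0512 and 0.101. The call on Txnip was also lost without a filter on low counts (0.106) and under limma-voom (0.0647).

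The remaining redox lists held few calls, with list medians between -0.10 and 0.14 on the log2 scale over the 3 comparisons. In either direction, 12% of all genes were called off drug against control, 12.4% off drug against on drug and 7.07% on drug against control. Of 7 NADPH-generating enzymes only Idh2, the mitochondrial isocitrate dehydrogenase, was called, higher off drug by 0.26 against control (edgeR, adjusted p = 0.0076) and by 0.33 against on drug (adjusted p = 0.00102). Of 13 genes of haem and iron handling, 0 were called off drug against control, 1 rose and 2 fell off drug against on drug, and 2 rose on drug against control. Fth1, the ferritin heavy chain, rose off drug against on drug by 0.21 (adjusted p = 0.0174), and Cd163, the macrophage receptor for haemoglobin, had a log2 fold change of -0.54 there (adjusted p = 0.0148). Cd163 is itself among the 9 macrophage markers counted above. Lrp1, which takes up haem bound to haemopexin, rose on drug against control by 0.39 (adjusted p = 0.0025) and was lower off drug than on drug, at -0.22 (adjusted p = 0.0349). Of 7 superoxide and peroxide enzymes, Sod3 rose off drug against control by 0.32 (adjusted p = 0.0243), Nox4 and Sod2 rose off drug against on drug by 0.28 (adjusted p = 0.0165) and 0.24 (adjusted p = 0.0198), and Sod2 fell on drug against control by 0.24 (adjusted p = 0.0319). Cd163 on drug against control (0.46, adjusted p = 0.0495) was called under only 8 of 21 other settings (0.0593 to 0.145 without single libraries), and Lrp1 off drug against on drug was lost without any 1 off-drug library or without on-drug replicate 2, 3 or 4 (adjusted p 0.0587 to 0.106) and with replicate number as a block (0.0584). The call on Fth1 was lost without off-drug replicate 1 (0.0694), that on Nox4 without off-drug replicate 2 (0.0519) or on-drug replicate 3 (0.0663), and that on Sod3 without control replicate 2, 3 or 4 or off-drug replicate 1 or 3 (0.0551 to 0.0906). Sod2 lost its call off drug against on drug without off-drug replicate 3 or 4 or on-drug replicate 2 or 3 (0.0524 to 0.0707). It lost that on drug against control without control replicate 2 or 4, without on-drug replicate 2, 3 or 4, and with library size alone as the scale (0.0579 to 0.0877).

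Of 12 glucocorticoid-responsive genes, 0 rose and 3 fell off drug against control, and 0 rose and 5 fell off drug against on drug, around list medians of -0.68 and -0.63. The shares of all genes that fell were 5.77% and 6.92%, those that rose 6.27% and 5.44%. On drug against control 4.13% of all genes rose. Dusp1, a phosphatase of stress kinases, averaged 242 ± 19.8 CPM off drug, 369 ± 48.7 CPM on drug and 390 ± 58.8 CPM in controls, with differences of -0.69 against control (edgeR, adjusted p = 0.000846) and -0.61 against on drug (adjusted p = 0.00164). Cdkn1a, the cell cycle inhibitor p21, had -1.18 (adjusted p = 0.000549) and -0.86 (adjusted p = 0.00389) in the same comparisons. Angptl4, a lipase inhibitor, had -1.04 against control (adjusted p = 0.0344), a call that was lost under 11 of 21 other settings, among them those without any 1 control library, without off-drug replicate 1, 2 or 4 and without on-drug replicate 4 (adjusted p 0.0503 to 0.0909) and with replicate number as a block (0.0668). On drug against control 1 of the 12 rose, around a list median of -0.09. This was Klf9, which rose by 0.26 (adjusted p = 0.0181), a call lost without control replicate 3 or 4 or on-drug replicate 4 (0.0543 to 0.0757), and had -0.28 off drug against on drug (adjusted p = 0.00552).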

How the data were processed

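RNA sequencing of 12 aortas gave 1 table of whole-number read counts per library, made by the authors with featureCounts 1.4.6-p3. Per the file headers, the annotation was GENCODE release M13 of the mouse and the aligner index came from STAR 2.5.3a. The genome build is GRCm38 and DESeq2 is among the tools, per the submitters' processing notes. Per the file headers, read pairs mapping to several places or over several genes were counted for each, duplicates were ignored and no strand was set. A deposited series table of log2 values equalled log2(count / size factor + 1) to within 5.02e-09 and was used only for symbols and coordinates; 306 of its 50906 rows repeat a gene ID.

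All tests on counts used edgeR 4.0.16 under R 4.3.3. The filterByExpr step, set to a count of 10 and a total of 15, passed 24660 of 50600 genes. After TMM scaling, 1 robust quasi-likelihood model of 3 groups (9 residual degrees of freedom) was fitted. Two-sided p-values were adjusted by Benjamini-Hochberg across the whole table and called below 0.05. The SE of a log2 fold change comes from its F statistic, and the SD of a CPM value from 4 libraries. RPKM used the exon length in the count files. The labels describe 4 mice per group but tie no library to a litter or cage, and p-values set a group difference against the spread between these samples. The Mt2 to Mt1 ratio is a description with no test. Depth, 41524501 to 109423243 counts, left at least 407 counts per member and library; reads counted for several genes enter these totals more than once.

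Members and lists were chosen with earlier results of these data known. Text genes are the 8 members; Nfe2l2, Keap1, Bach1 and Mtf1; up to 3 called genes by smallest adjusted p from each of 9 pathway lists (106 genes, 105 tested; Slc30a10 was not) in each comparison; and the 3 genes most correlated with Mt2, Hmox1, Nqo1 and Srxn1. Other genes, the ratio and the TGANTCAGC motif were chosen after their values were seen. Replicate numbers gave no clear sign of pairing. Of 12 same-number pairs 4 had a correlation of deviations above 0.1 (range -0.294 to 0.182), and pairs with different numbers ranged from -0.278 to 0.351. Alternatives were DESeq2 size factors, library size alone, no filter, a filter at CPM 1 in 4 libraries, limma-voom (limma 3.58.1), DESeq2 1.42.0, a non-robust fit, only the compared groups, a replicate block, each library left out and, for counts, an adjusted p below 0.10. The steps were tested on simulated counts. Promoters came from a RefSeq table on GRCm38.p6, which held 6 of the 8 members; protein sequences were not used here.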

Additional observations from a re-analysis of the deposited data

How the results depend on the processing

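The calls on Nqo1 in both off-drug comparisons and on Srxn1 off drug against control held under all 21 other settings, with adjusted p of 0.000802 to 0.0304 and 2.59e-09 to 0.000614 for Nqo1 and 0.00403 to 0.0479 for Srxn1. The 4 members called off drug against control ranged from 2 to 4 when single libraries were left out (2 without control replicate 1 or 2 or off-drug replicate 1), and the 3 called off drug against on drug from 1 to 3 (1 without off-drug replicate 1 or 2). With the replicate block the members called stayed at 4 off drug against control, 3 off drug against on drug and 0 on drug against control. The replicate numbers gave no clear sign of pairing. On drug against control called 1743 genes in all, but 2845 with DESeq2, 1147 with the 2 groups alone, 2993 at an adjusted p below 0.10 and 803 to 2290 with single libraries left out. Library size alone as the scale changed the split of calls to 1038 higher and 388 lower on drug against control (1018 and 725 with TMM), and to 1870 and 844 off drug against control (1545 and 1422 with TMM). It also reversed differences that were not called, giving 0.0064 for Txnrd1 and 0.0071 for Bach1 on drug against control, 0.0298 for Hmox1, 0.0354 for Txnrd1, 0.0100 for Mtf1 and 0.0486 for Bach1 off drug against control, and 0.0104 for Keap1 off drug against on drug. A fit of the compared groups alone gave 0.0027 for Bach1 off drug against control, and limma-voom gave -0.0017 for Txnrd1 and -0.0051 for Bach1 off drug against on drug. Leaving out single libraries also turned uncalled differences round. On drug against control these ranged from -0.0913 to 0.0050 for Txnrd1, -0.0129 to 0.0878 for Srxn1, -0.0208 to 0.0927 for Nfe2l2, -0.1083 to 0.0179 for Bach1 and -0.0289 to 0.134 for the log2 ratio of Mt2 to Mt1. Off drug against control they ranged from -0.0762 to 0.0551 for Hmox1 and -0.0846 to 0.0545 for Bach1, and off drug against on drug from -0.031 to 0.0653 for Txnrd1, -0.0457 to 0.034 for Keap1 and -0.0251 to 0.0853 for Bach1. The cause of these changes was not tested. In the 150-base window, 14.7% of promoters held a metal core, 6.80% the antioxidant core and 0.709% the NRF2 and small Maf core. With 4 libraries a group, differences as small as those of Gclc and Gclm lie near the limit of what these tests call.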
